A study of Mus musculus with 6 samples.

Results

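The Kruppel-like factors are zinc-finger transcription factors that bind CACCC and GC-rich boxes in DNA. Expression of 10 of them, Klf2, Klf3, Klf4, Klf5, Klf6, Klf7, Klf9, Klf10, Klf13 and Klf15, was compared between old and young mice. They were chosen by name from the gene family, with earlier results of these data known, and are not the whole family. A gene was kept where its identifier and its 6 FPKM values (fragments scaled by gene length and by the library total) could be read. This left 9 of the 10 among 19033 intact genes. Klf13 had 5 readable values, which no single gene length turned into whole fragments, so some may have been altered and no value of Klf13 is given.

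RNA was sequenced from the lung of C57/BL6 mice after acid injury, in libraries labelled as vascular endothelial cells, with 3 libraries from old and 3 from young mice, each from a separate mouse. The labels give neither the sex nor an age in months, state no time since the injury, and list no uninjured mice, and all 6 mice had the injury. The labels' protocols speak of removed, homogenized tissue and name no step that isolates endothelial cells. Each library held 11381122 to 17931463 fragments, as implied by the FPKM values.

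The libraries differed in the cell types their markers stood for. All 15 tested endothelial markers (of 18 listed, none of the 15 at 0) were lower in old mice, 10 of them past the threshold. Their summed level was 67.4 to 242 FPKM for the old libraries and 773 to 1914 FPKM for the young. Summed fibroblast markers (7 of 10 tested) ran the other way, at 2234 to 4999.7 FPKM for the old libraries and 109 to 215 FPKM for the young, and all 7 rose. Neutrophil markers (8 of 10 tested) reached 23818 and 24299.8 FPKM in young mice 2 and 3. They were at 54.8 FPKM in young mouse 1 and 325.5 to 928.0 FPKM in old mice. Macrophage and monocyte markers (11 of 12 tested) summed to 304, 3852 and 11557 FPKM in young mice 1, 2 and 3, and to 1162 to 4047 FPKM in old mice. T and natural killer cell markers (7 of 10 tested) summed to 274, 1768 and 80.3 FPKM in old mice 1, 2 and 3, and to 10.7 to 71.6 FPKM in young mice. Summed smooth muscle and pericyte markers (6 of 9 tested) stood at 1299 FPKM in young mouse 2 and at 66.6 and 67.4 FPKM in the other young mice. The called members, Klf4 and Klf6 are therefore also given against young mouse 1 alone, as are some other called genes. In such bulk libraries, fewer cells of a type and less RNA per cell cannot be told apart.

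KLF2 and KLF4 are induced in endothelial cells by laminar blood flow, through the kinases MEKK3, MEK5 and ERK5 and the MEF2 transcription factors, and keep the vessel wall quiescent, dilated and resistant to clotting. Other members act elsewhere: KLF3 is a repressor that recruits the corepressor CtBP, KLF5 drives growth of epithelium and smooth muscle, and KLF9 and KLF15 respond to glucocorticoids. RefSeq promoter windows (GRCm38.p6, 250 bases before to 50 after the start) were matched for 8 of the 10 genes, all but Klf5 and Klf10. Those of Klf2, Klf4 and Klf3 are shown because the first is the flow-induced gene with the highest level here, the second is its flow-induced partner, and the third held the most CACCC boxes among these windows. Capitals mark matches to the MEF2 consensus or to CACCC on either strand.
Klf2, chr8:72318812-72319111, plus strand: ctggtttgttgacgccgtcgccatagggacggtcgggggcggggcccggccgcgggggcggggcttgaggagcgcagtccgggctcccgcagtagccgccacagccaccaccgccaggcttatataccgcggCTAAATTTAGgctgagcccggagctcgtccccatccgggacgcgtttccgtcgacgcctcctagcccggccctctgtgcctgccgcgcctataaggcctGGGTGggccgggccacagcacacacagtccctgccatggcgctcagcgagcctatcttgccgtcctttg
Klf4, chr4:55532426-55532725, minus strand: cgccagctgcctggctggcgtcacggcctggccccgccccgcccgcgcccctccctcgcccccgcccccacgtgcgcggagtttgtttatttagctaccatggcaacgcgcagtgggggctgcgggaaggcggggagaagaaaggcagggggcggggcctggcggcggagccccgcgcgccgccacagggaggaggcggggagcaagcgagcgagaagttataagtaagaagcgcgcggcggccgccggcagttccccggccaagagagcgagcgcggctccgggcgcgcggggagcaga
Klf3, chr5:64803271-64803570, plus strand: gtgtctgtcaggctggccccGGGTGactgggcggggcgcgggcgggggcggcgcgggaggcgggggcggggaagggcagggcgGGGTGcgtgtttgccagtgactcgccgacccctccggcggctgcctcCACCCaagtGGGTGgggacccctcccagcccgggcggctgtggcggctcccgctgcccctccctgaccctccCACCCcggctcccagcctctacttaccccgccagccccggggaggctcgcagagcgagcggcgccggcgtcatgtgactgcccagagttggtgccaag

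The Klf2 window held 1 match to the MEF2 consensus, CTAAATTTAG, from 118 to 109 bases before the start, and the other 7 windows held none. Of 32851 promoter windows of the same length, 3.19% held such a match. CACCC, searched on both strands, was found 5 times in the Klf3 window, 3 times in that of Klf7, once each in those of Klf2, Klf9, Klf13 and Klf15, and not in those of Klf4 and Klf6, against 57.5% of all windows with at least 1. The box CCGCCC, also searched on both strands, was found 6 times for Klf3, 4 times for Klf4 and 3 times for Klf13. It was found 2 times for Klf2, 1 time each for Klf6, Klf7 and Klf15, and not for Klf9. Of all windows, 35.7% held at least 1. Matches to CACCC and CCGCCC can share bases, as they do in the Klf3 window. These matches describe letters in the windows and say nothing of binding.

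Old and young mice were compared with limma on log2(FPKM + 1) over 10010 genes with a mean of at least 1 FPKM, and a gene was called at a Benjamini-Hochberg adjusted p under 0.05. Klf5 rose in old mice, and Klf3 and Klf7 fell. The other 6 members, Klf2 and Klf4 among them, did not pass. Of all tested genes, 4.98% were called, 2.95% as higher and 2.03% as lower in old mice, against 3 of the 9 members, 1 higher and 2 lower. The median log2 fold change of the members was -0.52, and that of all tested genes was -0.01. Old and young values did not overlap for 6 of the 9 members, 5 of them lower in old mice, against 31.1% of all tested genes without overlap and 16.7% lower without overlap.

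**Figure D1:**
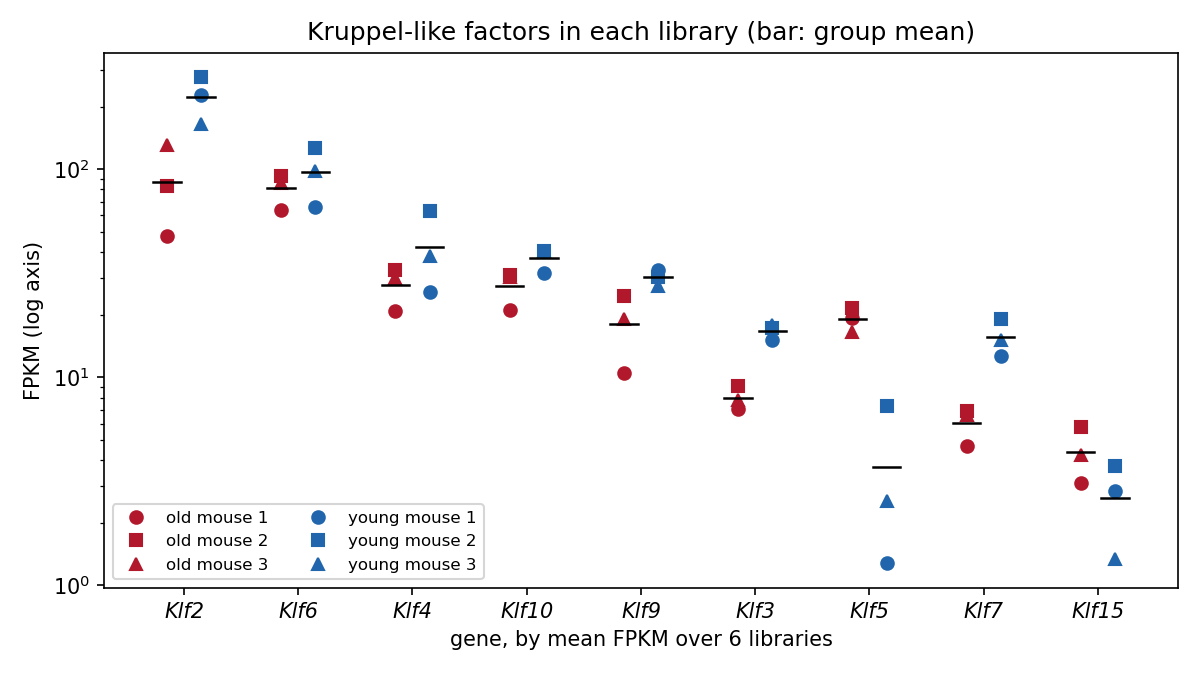
FPKM of 9 Kruppel-like factors in each library on a log axis, with old mice in red, young mice in blue, the mouse number as the symbol and a bar for each group mean. Klf5 sits higher in every old than in every young library, while Klf3, Klf7, Klf2, Klf9 and Klf10 sit lower.

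Klf2 (chromosome 8, 72319033 to 72321656 in GRCm38) was at 47.7, 83.01 and 131 FPKM in the libraries of old mice 1, 2 and 3, with 228, 277 and 164 FPKM for the young mice 1, 2 and 3. Every old value lay below every young value, and the old libraries spread more widely relative to their mean, with old mouse 1 lowest. The values rested on 1166 to 7931 fragments per library. Means were 87.2 ± 41.7 FPKM for the old mice and 223 ± 56.3 FPKM for the young (± is the SD, n = 3 per group), and the log2 fold change was -1.43 ± 0.41 (SE), or 2.69-fold lower, which did not pass (limma adjusted p = 0.1004). It stayed short of the threshold in 16 of 16 alternative settings, with adjusted p from 0.0831 to 0.234 and log2 fold changes from -1.78 to -1.06. Summed endothelial markers were lowest in the same library as Klf2 among the old, old mouse 1, but highest in young mouse 1, where Klf2 was second to young mouse 2.

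Klf4 (chromosome 4, 55527143 to 55532466) was at 20.7, 32.7 and 30.1 FPKM in the libraries of old mice 1, 2 and 3, with 25.8, 63.1 and 38.3 FPKM for the young mice 1, 2 and 3. The groups overlapped, since young mouse 1 lay below old mice 2 and 3. Means were 27.8 ± 6.29 and 42.4 ± 19.0 FPKM (± is the SD, n = 3 per group), and the change of -0.52 ± 0.37 (SE, log2) between them did not pass (limma adjusted p = 0.429). Against young mouse 1 alone the change was 0.08 ± 0.40 (adjusted p = 0.917), so its sign rested on young mice 2 and 3. The flow-induced pair thus had unequal values: Klf2 exceeded Klf4 by a ratio of 2.30, 2.54 and 4.34 in old mice 1, 2 and 3, and of 8.84, 4.39 and 4.29 in young mice 1, 2 and 3. The ratios of old mouse 3 and of young mice 2 and 3 lay close together, and the groups overlapped.

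Klf3, the CtBP-recruiting repressor (chromosome 5, 64803388 to 64832901), was at 7.03, 9.05 and 7.82 FPKM in the libraries of old mice 1, 2 and 3, with 15.1, 17.2 and 17.9 FPKM for the young mice 1, 2 and 3. Values were tight within each group and did not overlap. Its mean was 7.97 ± 1.02 FPKM for the old mice and 16.7 ± 1.45 FPKM for the young (± is the SD, n = 3 per group), and it fell by 0.99 ± 0.21 (SE) on the log2 scale, or 1.98-fold (limma adjusted p = 0.0499). The call passed in 3 of 16 alternatives (adjusted p 0.0312 to 0.222), and the fold change stayed between -1.07 and -0.85. It ended whichever single library was left out, with either smaller pseudocount, without the filter and under quantile normalization. It also ended against young mouse 1 alone, without a variance trend and with a block on mouse number.

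Klf7, a broadly expressed member best known for its role in neurons (chromosome 1, 64029447 to 64122282), was at 4.67, 6.89 and 6.63 FPKM in the libraries of old mice 1, 2 and 3, with 12.7, 19.1 and 15.1 FPKM for the young mice 1, 2 and 3. The groups did not overlap. Means were 6.06 ± 1.21 and 15.6 ± 3.22 FPKM (± is the SD, n = 3 per group), and it fell by 1.23 ± 0.26 (SE) on the log2 scale, or 2.35-fold (limma adjusted p = 0.0443). The call passed in 6 of 16 alternatives (adjusted p 0.024 to 0.203), with fold changes from -1.37 to -0.97, and ended whichever single library was left out and against young mouse 1 alone. The endothelial marker sums given above were lower in the old libraries, as were Klf3 and Klf7. Within the old group the sum and both genes were lowest in mouse 1. Within the young group the sum was highest in mouse 1, at 1914 FPKM, where both genes were lowest. The part of endothelial RNA in both results was not tested.

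Klf5, the member of epithelium and smooth muscle (chromosome 14, 99298691 to 99315036), was at 19.2, 21.5 and 16.6 FPKM in the libraries of old mice 1, 2 and 3, with 1.28, 7.26 and 2.53 FPKM for the young mice 1, 2 and 3. Old values lay close together and above all young values, of which young mouse 2 was highest. The young values rested on 39, 194 and 65 fragments and the old on 421 to 511. Means were 19.1 ± 2.47 FPKM for the old mice and 3.69 ± 3.16 FPKM for the young (± is the SD, n = 3 per group), and it rose by 2.30 ± 0.46 (SE) on the log2 scale, or 4.93-fold (limma adjusted p = 0.0412). The call passed in 6 of 16 alternatives (adjusted p 0.0161 to 0.119), with fold changes from 1.88 to 3.13. It ended when any of old mice 1, 2 and 3 or of young mice 1 and 3 was left out. The call held without young mouse 2, the highest of the young (2.82, limma adjusted p = 0.0161). Against young mouse 1 alone, the lowest of the young, the log2 fold change was 3.13. That setting leaves 1 young library and so holds no spread among young mice.

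Epithelial markers moved in the same direction as Klf5. Of 11 listed, 6 were tested, 3 rose, none fell and 3 did not pass, with a median log2 fold change of 2.25. Krt18 and Krt8, keratins of simple epithelium, were at 752 ± 114 and 509 ± 50.7 FPKM for the old mice and 86.1 ± 36.7 and 69.8 ± 29.3 FPKM for the young (± is the SD, n = 3 per group). Epcam, an adhesion molecule of epithelial cells, was at 102, 77.6 and 76.9 FPKM in the libraries of old mice 1, 2 and 3. It was at 4.79, 19.9 and 8.45 FPKM for the young mice 1, 2 and 3. Its order was that of Klf5 within the young group but not within the old. Their log2 fold changes were 3.18 ± 0.34 for Krt18 (limma adjusted p = 0.00745), 2.92 ± 0.33 for Krt8 (adjusted p = 0.00837) and 3.04 ± 0.47 for Epcam (adjusted p = 0.0218). The call for Epcam was lost when young mouse 3 or any old mouse was left out (highest adjusted p 0.0789), and that for Krt8 without old mouse 3 (0.0516). Summed epithelial markers ranged from 1291 to 1618 FPKM in the old group and were 116, 318 and 168 FPKM in the young mice 1, 2 and 3. Young mouse 2, the young library highest in Klf5, was also the one highest in the smooth muscle and pericyte sum. Mesothelial markers were higher in old mice as well, with 3 of 6 tested past the threshold, none lower and a median log2 fold change of 3.61. Their sum was 171, 456 and 305 FPKM in old mice 1, 2 and 3, which was not the order of Klf5. It was 9.33, 40.8 and 11.6 FPKM in the young mice 1, 2 and 3, again the order of Klf5. Msln, which encodes mesothelin, had a log2 fold change of 4.53 ± 0.79 (limma adjusted p = 0.029), Upk3b, a uroplakin of mesothelium, one of 3.72 ± 0.60 (adjusted p = 0.0238), and Krt19, a keratin of epithelium and mesothelium, one of 3.51 ± 0.45 (adjusted p = 0.0119). Leaving out old mouse 3 ended the calls for Msln (limma adjusted p = 0.101), Upk3b (0.0919) and Krt19 (0.0583). Leaving out old mouse 2 did so too (0.0833, 0.0707 and 0.0516 in that order). The Msln and Upk3b calls also ended with young mouse 1 left out (0.0729 and 0.0578). The same held for young mouse 3 (0.0733 and 0.065). The part of epithelial, mesothelial, fibroblast and smooth muscle RNA in the Klf5 result was not tested.

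**Figure D2:**
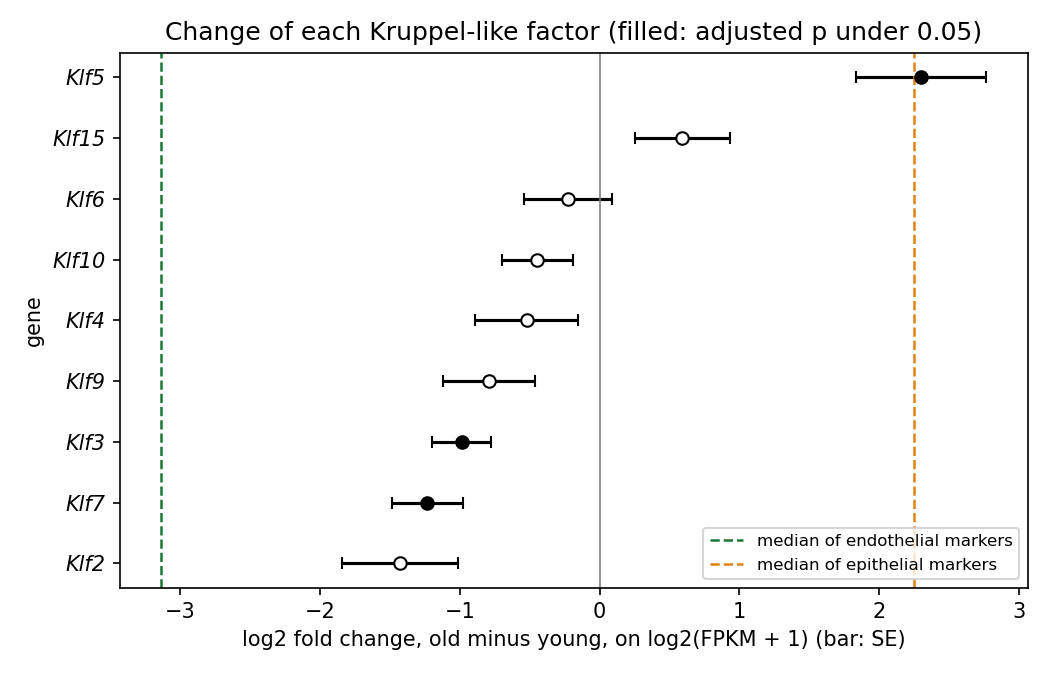
Log2 fold change of each member, old minus young, with its SE as a bar. Filled points are past the adjusted p threshold (Klf5 at 2.30, Klf3 at -0.99 and Klf7 at -1.23). Dashed lines mark the median change of endothelial (-3.14) and epithelial (2.25) markers.

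Klf6 and Klf10 are early-response members, Klf6 being induced by injury and Klf10 by TGF-beta. Klf6 was at 64.0, 92.7 and 86.4 FPKM among the old, with 65.9, 127 and 98.1 FPKM among the young, for mice 1, 2 and 3 in turn. The groups overlapped between 65.9 and 92.7 FPKM, with young mice 2 and 3 above every old value, and the old-minus-young change was -0.22 ± 0.31 (log2, SE; limma adjusted p = 0.703). Its sign turned against young mouse 1 alone, at 0.28 ± 0.39 (adjusted p = 0.698). Klf10 was at 21.2, 31.1 and 30.3 FPKM among the old, with 31.7, 40.5 and 40.3 FPKM among the young, for mice 1, 2 and 3 in turn. The gap between its groups lay between 31.1 FPKM in old mouse 2 and 31.7 FPKM in young mouse 1, and the old-minus-young change was -0.44 ± 0.25 (log2, SE; limma adjusted p = 0.331).

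Klf9 was at 10.5, 24.6 and 19.0 FPKM among the old, with 33.0, 30.3 and 27.6 FPKM among the young, for mice 1, 2 and 3 in turn. The groups did not overlap, old mouse 1 was lowest, and the log2 fold change of -0.79 ± 0.33 (SE) did not pass (limma adjusted p = 0.214). Klf15 was at 3.12, 5.79 and 4.26 FPKM among the old, with 2.83, 3.76 and 1.35 FPKM among the young, for mice 1, 2 and 3 in turn. It was the lowest member in both groups by mean, on 56 to 213 fragments per library, and the groups overlapped. Its log2 fold change of 0.59 ± 0.34 (SE) was, with that of Klf5, one of the 2 positive ones, and did not pass (limma adjusted p = 0.338). Of the glucocorticoid-induced genes listed beside Klf9 and Klf15, 8 of 10 were tested and none was called (median log2 fold change -0.32).

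By mean FPKM, which is per gene length, young mice had the order Klf2, Klf6, Klf4, Klf10, Klf9, Klf3, Klf7, Klf5 and Klf15. Old mice had the order Klf2, Klf6, Klf4, Klf10, Klf5, Klf9, Klf3, Klf7 and Klf15, so that Klf5 moved from rank 8 to rank 5. In young mice every Klf2 value lay above every Klf6 value, whereas in old mice the ranges of Klf2 (47.7 to 131 FPKM) and Klf6 (64.0 to 92.7 FPKM) overlapped, and Klf6 was the higher in old mice 1 and 2. The neighbours Klf4 and Klf10 overlapped in both groups. In young mice so did Klf10 and Klf9, Klf3 and Klf7, and Klf5 and Klf15. In old mice so did Klf10 and Klf5, Klf5 and Klf9, and Klf7 and Klf15. By library, Klf5 ranked 5, 6 and 6 in old mice 1, 2 and 3. It ranked 9, 8 and 8 in young mice 1, 2 and 3. Klf2 made up 24.1%, 27.0% and 39.4% of the summed FPKM of the 9 members in old mice 1, 2 and 3, and 54.8%, 47.3% and 40.5% in young mice 1, 2 and 3. These shares did not overlap between groups, although old mouse 3 and young mouse 3 lay close. Klf5 made up 4.99% to 9.69% of that sum in old and 0.307% to 1.24% in young libraries.

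Klf2 and Klf4 were also set against endothelial RNA in their own library, as log2(FPKM + 1) minus the mean of the 15 tested endothelial markers. That mean was lower in old mice by 2.97, so a gene with no change of its own would be 2.97 higher in old mice on this scale, and each gene's difference is its log2 fold change plus that amount. Klf2 was at 3.63, 2.97 and 3.53 in old mice 1, 2 and 3, and at 1.22, 2.21 and 2.09 in young mice 1, 2 and 3. Its difference was 1.54, below the value for an unchanged gene. Set against no difference, a two-sided exact permutation test gave p = 0.1, the smallest p that 3 against 3 allows. Klf4 was at 2.46, 1.66 and 1.44 in old and at -1.88, 0.09 and 0.02 in young mice 1, 2 and 3, a difference of 2.44 (exact permutation p = 0.1, again the smallest possible). These differences show that the values of both genes differed less between the groups than the marker mean did. The sign of the differences follows from the shift in the markers that every gene shares. The same exact permutation test gave p = 0.1 for every kept member, so it does not single out Klf2 or Klf4. The distance of either gene from the value for an unchanged gene equals its log2 fold change, -1.43 for Klf2 and -0.52 for Klf4. As given above, neither passed (limma adjusted p = 0.1004 and 0.429), and no further test was made on this scale.

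The flow-signalling list holds genes known to act upstream of Klf2 and Klf4, and 14 of its 16 genes were tested. It was not split by whether a gene raises or lowers Klf2 and Klf4. Of these, 7 fell, none rose and 7 did not pass, with a median log2 fold change of -1.20. Kdr, Pecam1 and Cdh5, 3 of the 7 that fell, are also among the 15 endothelial markers. Pecam1 and Cdh5, junction proteins that are part of the endothelial flow sensor, fell by 3.44 ± 0.43 and 3.45 ± 0.49 (SE) on the log2 scale (limma adjusted p = 0.0115 and 0.0176). Rasip1, an endothelial effector of the GTPase Rap1, fell by 3.21 ± 0.51 (adjusted p = 0.0233). Another 3 called genes were singled out after their values were seen. Mef2a, a transcription factor of the MEF2 family, was at 2.38, 3.83 and 3.62 FPKM among the old, with 10.7, 8.15 and 12.9 FPKM among the young, for mice 1, 2 and 3 in turn, without overlap, and fell by 1.43 ± 0.26 (adjusted p = 0.0326). Heg1, the membrane receptor that anchors the CCM protein complex, fell by 1.52 ± 0.31 (adjusted p = 0.042), and Piezo1, a mechanically gated channel, by 1.09 ± 0.23 (adjusted p = 0.0474). These calls passed in 8 of 16 alternatives for Mef2a, 5 of 16 for Heg1 and 4 of 15 for Piezo1. Against young mouse 1 alone the adjusted p was 0.0995 for Mef2a, 0.137 for Heg1, 0.220 for Piezo1 and 0.0707 for Cdh5, so these calls were lost. Without old mouse 3 the call for Cdh5 was lost too (0.059), and that for Rasip1 was lost whichever old mouse was left out (0.0543 to 0.0707).

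Of 9 genes listed as induced by KLF2 or KLF4 in endothelium, 5 were tested, 3 fell, none rose and 2 did not pass (median log2 fold change -2.76). Nos3, the endothelial nitric oxide synthase, was at 0.513, 1.13 and 1.54 FPKM among the old, with 11.7, 9.11 and 6.45 FPKM among the young, for mice 1, 2 and 3 in turn. No value overlapped, and it fell by 2.29 ± 0.31 (SE) on the log2 scale (limma adjusted p = 0.0152). Tek, the angiopoietin receptor and also one of the 15 endothelial markers, fell by 3.74 ± 0.62 (adjusted p = 0.0247). Gja4, the arterial connexin, fell by 2.76 ± 0.52 (adjusted p = 0.0361). The calls for Tek and Gja4 each passed in 7 of 16 alternatives (highest adjusted p 0.0877 and 0.110), and both were lost against young mouse 1 alone (0.0508 and 0.0662). Tek lost its call when any of the old mice, young mouse 1 or young mouse 3 was left out, and Gja4 whichever single library was left out. The call for Nos3 was lost without old mouse 2 (0.0586) or old mouse 3 (0.0524).

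Of 8 genes listed as lowered by these factors, 5 were tested, and they moved both ways, with 2 lower, 1 higher and 2 not past the threshold (median log2 fold change -0.50). Edn1, which encodes the vasoconstrictor endothelin, was at 5.16, 10.98 and 8.83 FPKM among the old, with 46.5, 47.3 and 54.3 FPKM among the young, for mice 1, 2 and 3 in turn, and fell by 2.48 ± 0.30 (SE) on the log2 scale (limma adjusted p = 0.0102). Sele, the endothelial selectin that captures leukocytes, fell by 3.40 ± 0.55 (adjusted p = 0.0238). F3, which encodes tissue factor, the starter of clotting, was at 26.5, 32.3 and 20.4 FPKM among the old, with 2.21, 8.64 and 3.45 FPKM among the young, for mice 1, 2 and 3 in turn, and rose by 2.38 ± 0.43 (adjusted p = 0.031). Nos3 and Edn1, which belong to opposite lists, therefore fell together, as did the endothelial markers in the same libraries, and F3 had the same order of young mice as Klf5 and Epcam. The call for Edn1 passed in 14 of 16 alternatives and was lost without old mouse 3 (adjusted p = 0.0524) and against young mouse 1 alone (0.0594). That for Sele passed in 10 of 16 (highest adjusted p 0.0882) and was lost when young mouse 3 or any old mouse was left out. That for F3 passed in 9 of 16 (highest adjusted p 0.0962) and was lost when any of the old mice, young mouse 1 or young mouse 3 was left out. The part of endothelial and epithelial RNA in these changes was not tested.

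Of the 16 other KLF and SP genes listed, 6 had no intact identifier and are unknown here, 10 had intact rows, 4 of these passed the filter on mean FPKM and none was called, with a median log2 fold change of -0.49. Sp3, which binds the same GC boxes, had the highest mean of the 4, at 9.16 ± 3.65 FPKM for the old mice and 11.4 ± 2.03 FPKM for the young (± is the SD, n = 3 per group), and its change was -0.34 ± 0.32 (log2, SE; limma adjusted p = 0.561). Sp1 was at 2.28 ± 0.58 and 4.15 ± 1.00 FPKM (SD, n = 3 per group; -0.65 ± 0.25, adjusted p = 0.190). Among corepressors and partners, 8 of 13 genes were tested and none was called (median -0.42). Of 16 immediate early genes, which are induced within minutes by stress or handling as Klf2, Klf4, Klf6 and Klf10 can be, 11 were tested and none was called (median 0.26, with 10 of 11 above 0). None of the 8 tested TGF-beta early genes was called (median -0.01).

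Likeness to Klf2 and Klf4 was taken as Pearson's r of log2(FPKM + 1) over the 6 libraries. Predicted, clone-named and small RNA symbols, and any symbol starting with Rn, were left out. Of the other tested genes, Tmem80 (r = 0.996), Slfn5 (0.988) and Zcchc14 (0.986) were closest to Klf2. Those closest to Klf4 were Col18a1 (0.985), Rapgef4 (0.983) and Klf6 (0.963). These values describe 6 libraries that share the contrast of age and of cell content. Slfn5 was at 0.769, 2.00 and 4.13 FPKM among the old, with 10.6, 12.4 and 8.53 FPKM among the young, for mice 1, 2 and 3 in turn, the order of Klf2 in every library. Among the members, Klf3 and Klf7 were the closest pair (r = 0.976), and Klf5 ran against Klf3 (-0.83), Klf7 (-0.74) and Klf2 (-0.72).

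**Figure D3:**
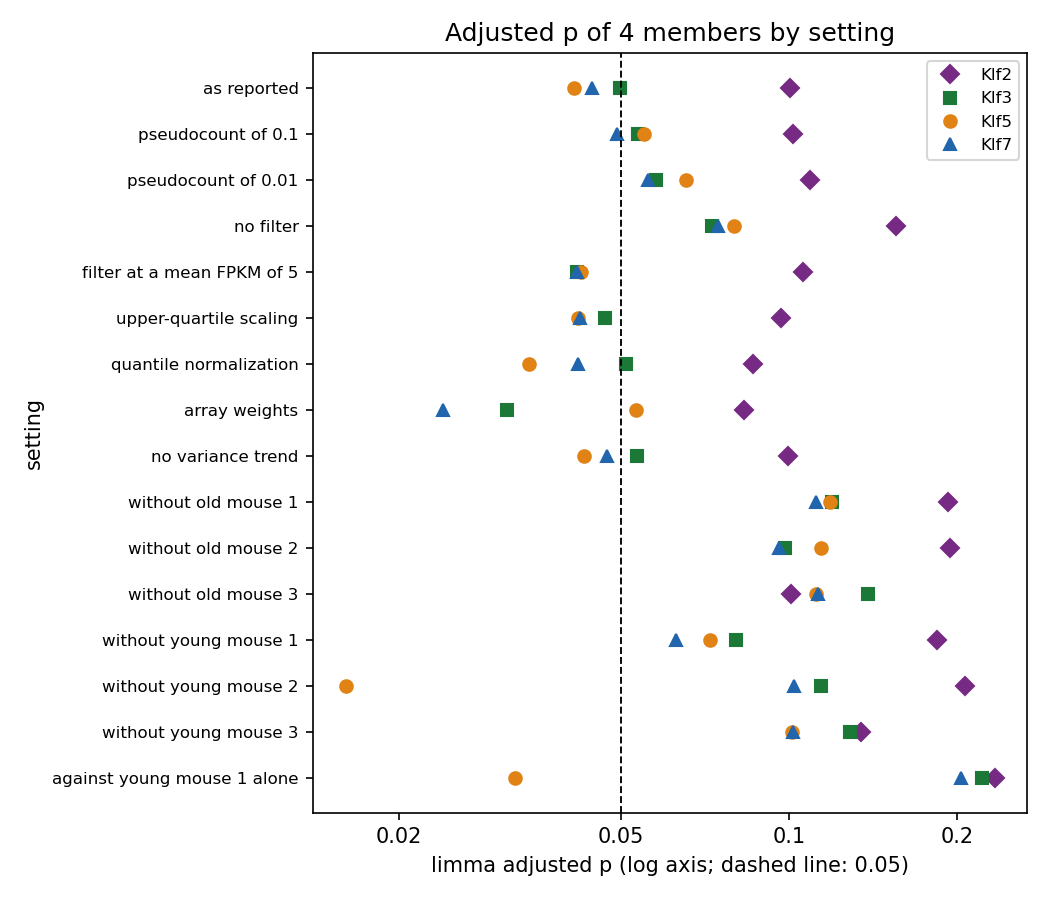
Limma adjusted p of Klf2, Klf3, Klf5 and Klf7 (log axis) as reported and under alternative settings, with the threshold as a dashed line. The block on mouse number, under which no member was called, is not drawn. Klf2 stays right of the line throughout, Klf3 and Klf7 cross it whenever 1 library is left out, and Klf5 stays left of it without young mouse 2 and against young mouse 1 alone.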

How the data were processed

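The authors deposited 1 table of FPKM values per library, with no counts, per the file headers. The submitters' processing notes name Bowtie 0.12.2, CASAVA 1.7 and the build mm8 without saying how each was used. Which counter and annotation served was not given in the sources used here. All 6 tables were damaged as received. Of 24720 rows, 3880 had malformed identifiers, and 1516 to 2582 value cells per library held text. In the 19063 rows that had a known identifier and 6 values readable as numbers under 1000000, a single gene length had to turn all values into whole fragments (tolerance 1e-06 fragments plus a relative 3e-13), and 26 rows failed. The 19037 rows left gave 19033 symbols, and nothing was repaired. Gene lengths equalled the merged exons of GENCODE mouse release 21 for 78.85% of them, so coordinates are those of that release on GRCm38 and not of mm8. The implied totals are not whole numbers, so they may hold a scaling factor. The 108 unnamed columns were not used.

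Log2(FPKM + 1) was fitted with limma 3.58.1 in R 4.3.3 (variance trend, no covariates, two-sided) and tested on simulated data. Each mouse is 1 replicate. The members and gene lists were chosen with earlier results of these data known. Named genes were the members, and up to 3 called genes per list by smallest p or else the 2 of highest mean FPKM. The 3 genes most like Klf2 and Klf4 were added, without the left-out symbols. The rule gave 58 genes, and values are printed for those that bear on the members. Of lists with no called gene these are Sp1, Sp3 and S100a9. Mef2a, Heg1 and Piezo1 lie outside the rule. The 16 alternatives cover the pseudocount, the filter, scaling, weights, the variance trend, a block on mouse number and left-out libraries. Promoter windows came from RefSeq.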

Additional observations from a re-analysis of the deposited data

How the results depend on the processing

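The number of genes called was 498. It was 323 with a pseudocount of 0.01, 223 with no filter, 292 with the filter raised to a mean of 5 FPKM, and 84 to 395 when 1 library was left out (lowest without old mouse 3, highest without young mouse 2). Of the 9 members, 3 were called as reported, 1 with a pseudocount of 0.1 (Klf7), 0 with one of 0.01 and 0 with no filter. With 1 library left out it was 0 to 1, the 1 being Klf5 without young mouse 2. Over 143 alternative fits of single members, 108 kept the direction and the side of the threshold, most of them of members not called. In 33 the direction was kept but the call was lost, all of them fits of Klf3, Klf5 and Klf7. These members kept their calls in 3, 6 and 6 of 16 alternatives in that order. The other 2 turned sign, which were Klf4 (0.0814) and Klf6 (0.28) against young mouse 1 alone. The neutrophil gene S100a9, which was not called, also turned, from -2.42 to 3.41. Of 474 fits of 30 other named genes, 363 kept direction and side. Relative to endothelial markers, the difference ran from 1.23 to 2.16 for Klf2 and from 1.80 to 3.73 for Klf4 over all settings tried. Left-out settings had fewer libraries, and the fit without a filter tested 19033 genes. Both smaller pseudocounts kept all libraries and the same 10010 genes. The cause of the lost calls was not tested.

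With a replicate block on mouse number, limma called 126 genes and 0 members. Paired by mouse number, the exact sign-flip test gave p = 0.25 for both Klf2 and Klf4 relative to endothelial markers. This is the smallest that 3 pairs allow, and the test was against no difference, not the value for an unchanged gene. Deviations from the group means correlated at -0.09, -0.003 and 0.01 within the same-numbered pairs, and the labels state no shared origin, so the mice share only a number. The fewest fragments behind a member were 39 for Klf5, in young mouse 1, and 56 for Klf15, in young mouse 3.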
